A study of Mus musculus with 2 samples.

Results

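Conventional dendritic cells type 2 (cDC2) of the mouse heart were examined in single-cell RNA sequencing of CD45+ cells, that is, of all leukocytes, 1 week after transverse aortic constriction (TAC) or a sham operation. The cells were chosen by a rule on their own reads, so the genes of that rule are no finding. A cell was counted as cDC2 when it had at least 100 reads per 1000000 reads of the cell (CPM) of Cd209a, which encodes a C-type lectin of the DC-SIGN family, and at least 3000 CPM of H2-Ab1, the MHC class II beta chain. It also had to have less than 500 CPM of C1qa, 800 of Csf1r, 2000 of Retnla, 50 of Xcr1, 50 of Clec9a, 200 of Cd79a and 50 of Cd3g, which keeps out macrophages, Retnla-high cells, cDC1, B cells and T cells. The rule was met by 294 cells out of 5263 kept cells, from 5315 with a hashtag. WT sham held 68 of them, CD3ϵ-/- sham 63, WT TAC 96, CD3ϵ-/- TAC 30, and the WT TAC group given an antibody to CD8 held 37. Values for the groups are given in that order throughout.

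All mice were males of 8 weeks on a C57BL/6 background, the wild-type (WT) strain being C57BL/6N. CD3ϵ-/- mice lack the epsilon chain of the T cell receptor complex in every cell and have no mature T cells. In TAC the aortic arch was narrowed by a suture, which loads the left ventricle with pressure. The CD8+T cell-depleted group had the same WT genotype and TAC, and received an antibody to CD8 on day 0 and every 3 days. The cells of each group carried 1 hashtag and all 5 groups were captured and sequenced together in 1 library by TAS-Seq, so each group is 1 sample. The number of hearts behind a hashtag was not given in the sources used here. No test between groups was therefore possible, and intervals cover counting error only. Reads are amplified copies rather than molecules, which makes even the counting intervals too narrow.

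cDC2 take up antigen in tissues, carry it to lymph nodes and present it on MHC class II mainly to CD4+T cells. They arise from precursors that depend on the growth factor Flt3 ligand, and the transcription factor IRF4 is needed for their function, whereas IRF8 and BATF3 direct cDC1, the subset that cross-presents to CD8+T cells. In mouse tissues cDC2 share CD11b, SIRPα and several C-type lectins with cells derived from monocytes, so the boundary between these cells is not sharp.

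The threshold on Cd209a was the one that decided most cells. Of the kept cells, 214 failed on Cd209a alone, 34 on Csf1r alone, 24 on Cd3g alone, 17 each on C1qa and Cd79a alone, 15 on H2-Ab1 alone, and 11 each on Retnla and Clec9a alone. The 214 cells had a median of 0 CPM of Cd209a and numbered 28, 35, 81, 33 and 37 in the 5 groups. The member with the least Cd209a had 111 CPM and the nearest cell outside had 87.4 CPM, against a median of 1701 CPM in the members. The nearest cells on either side were at 3184 and 2867 CPM for H2-Ab1, at 794 and 819 CPM for Csf1r, at 325 and 673 CPM for C1qa, and at 1998 and 2350 CPM for Retnla. Cells that failed only on Cd3g were found in the 3 groups with T cells, with 6, 13 and 5 cells in WT sham, WT TAC and the antibody group, and none in either CD3ϵ-/- group. Cells that failed only on Retnla were from sham hearts, 4 WT and 7 CD3ϵ-/-.

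The members were deeply sequenced. Their reads summed to 9306200, 10448699, 17513253, 5995516 and 7356580 in the 5 groups, with a median of 120920.5 to 193878 reads per cell by group. In CD8+T cell-depleted TAC, 13.8% of all reads came from the deepest cell. Where shares of cells with a read are given, every cell was first thinned to 34832 reads, which left out 10 of the 294 members. B cells, whose median depth was 47232.5 reads against 141870 in the members, served as the background for genes of myeloid cells. Apoe, a macrophage gene, was read in 100% of thinned members and 100% of thinned B cells, at 334 and 627 CPM against 17900.5 in MHC class II-high macrophages, so its level in the members was no higher than in B cells.

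The genotype and treatment labels were checked on all kept cells. Cd3g, a chain of the same complex, stood at 45.6, 17.5 and 22.5 CPM in WT sham, WT TAC and the antibody group and at 0.555 and 0.0661 CPM in the CD3ϵ-/- groups. Cd3e itself was still read in both CD3ϵ-/- groups, at 3.73 and 5.64 CPM against 10.8 to 17.8 CPM elsewhere. Cd8b1 was read in 12 of 1615 WT TAC cells and in 6 of 894 cells of the CD8+T cell-depleted group, so fewer CD8+T cells were not detectable there at this depth. That group is named below by its label, as CD8-depleted TAC.

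Reads of dendritic cell genes were examined in the members. The 5 cDC2 markers were listed with earlier results of these data known, so they describe the members and do not test the label. Of the 5, Cd209a was in the rule. Of the other 4, Klrd1 was read in 66.9% of thinned members, Clec10a in 74.3%, Klrb1b in 67.3% and Ccl17 in 10.6%, against 1.86%, 3.41%, 1.55% and 0% of thinned B cells. In cDC1 Klrb1b was read nearly as often, in 63.1% of thinned cells, and Klrd1 in 35.7%, Clec10a in 7.14% and Ccl17 in 0.595%. Clec10a was also read in 39.4% of Retnla-high cells. Ccl17, a chemokine that attracts CCR4-bearing T cells, was thus a gene of a minority. Flt3, the growth factor receptor of dendritic cell precursors, stood at 119 CPM, against 319 in cDC1, 7.86 in MHC class II-high macrophages and 12.1 in Ly6c2-high monocytes. Zbtb46, a transcription factor of conventional dendritic cells, stood at 38.9 CPM, against 85.3, 2.20 and 1.13 in the same populations. Flt3 and Zbtb46, which the rule did not use, thus stood above macrophages and monocytes and under cDC1. Irf4 was read in 39.1% of thinned members, but in 50.5% of B cells and 47.9% of Retnla-high cells. In cDC1, macrophages and monocytes it was read in 6.55%, 14.7% and 7.84%. Fcgr1, a gene used to tell monocyte-derived cells from cDC2, was read in 22.9% of thinned members, against 64.9% of macrophages and 79.5% of monocytes. By group its share of members was 7.69%, 6.90%, 28.7%, 40.0% and 45.9%. The label of conventional dendritic cells may thus not hold for every member.

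**Figure D1:**
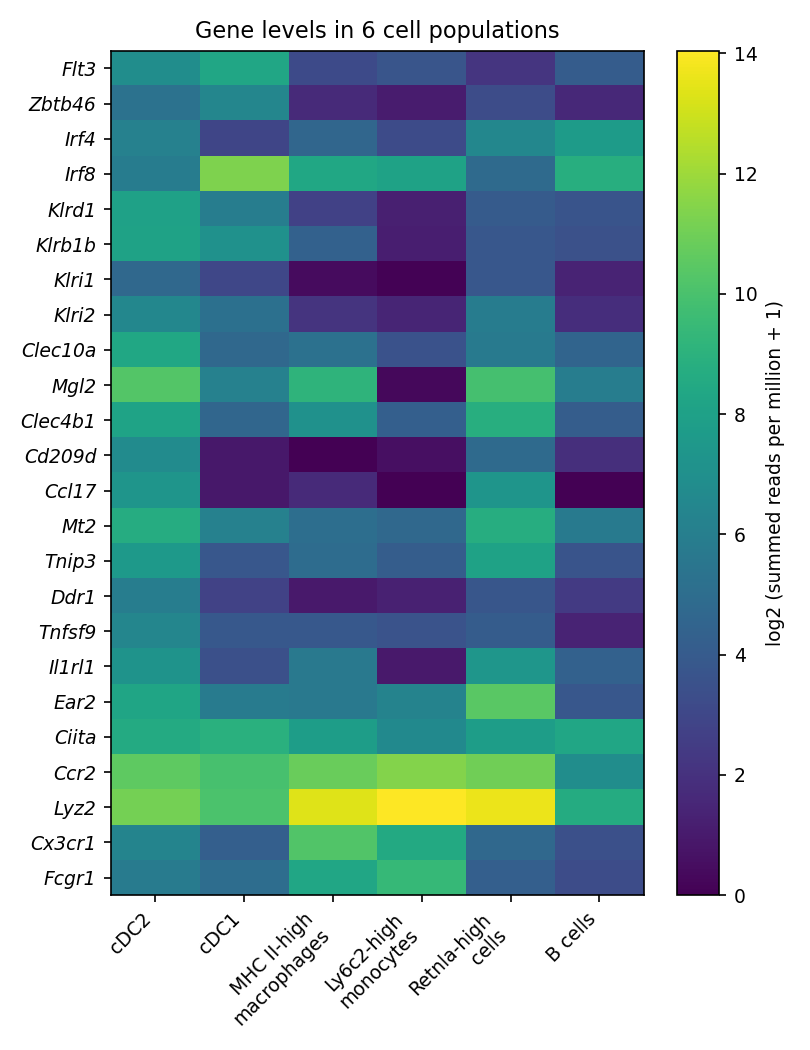
Levels of 24 genes (rows) in 6 cell populations (columns), as log2 of the summed level in CPM plus 1, shown by colour. Klrd1, Klrb1b and Clec10a were brightest in cDC2, Flt3 and Irf8 in cDC1, and Lyz2 was low in cDC2 beside the monocytes, macrophages and Retnla-high cells, while several genes high in cDC2 (Mt2, Tnip3, Ear2) were as bright or brighter in Retnla-high cells.

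Markers of T cells, NK cells, cardiomyocytes and neutrophils were low. T cell markers (7 genes) summed to 5.0 to 32 CPM over the groups, NK cell markers (6 genes) to 1.2 to 28.9 CPM, cardiomyocyte markers (4 genes) to 0.4 to 6.8 CPM, and 3 of the 5 neutrophil markers were at 0. Larger sums were found for the markers of cDC1 (713 to 912 CPM), macrophages (529 to 879), monocytes (304 to 1050), plasmacytoid dendritic cells (152 to 356), ILC2 (154 to 269) and B cells (119 to 206). In B cells, the background for myeloid genes, the macrophage list summed to 435 to 995 CPM and the monocyte list to 331 to 1760 CPM. The rule itself capped Cd3g of the T cell list, Cd79a of the B cell list and C1qa of the macrophage list. It also capped Xcr1 and Clec9a of the cDC1 list, so the sums of these lists were in part fixed by the selection. A few single members stood apart. One WT TAC member held 100% of the Col1a1 reads of its group (8871 CPM in that cell) and raised the fibroblast list there to 804 CPM, against 0 to 3.65 CPM in the others. Another WT TAC member held 94.1% of its group's Siglech reads, a plasmacytoid dendritic cell gene, and 1 more held 83.7% of its Retnla reads. In CD3ϵ-/- sham, 1 member held all reads of Fscn1 (2255 CPM), the actin-bundling protein of mature dendritic cells, and another all reads of Arg1, arginase 1 (3839 CPM). Leaving out these 5 members moved none of the 5 total counts of genes past 2-fold by more than 1.5 times.

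After TAC, cDC2 were a smaller share of the leukocytes of CD3ϵ-/- mice. Their share of kept cells was 6.80% (exact Clopper-Pearson 95% interval 5.32 to 8.54) in WT sham, 7.54% (5.85 to 9.55) in CD3ϵ-/- sham, 5.94% (4.84 to 7.21) in WT TAC and 3.26% (2.21 to 4.63) in CD3ϵ-/- TAC, with 4.14% (2.93 to 5.66) in CD8-depleted TAC. The counting intervals of WT TAC and CD3ϵ-/- TAC did not overlap, nor did those of both CD3ϵ-/- groups, while the interval of CD8-depleted TAC overlapped that of WT TAC. Out of MHC class II-high cells alone, the shares were 12.0%, 10.8%, 11.4%, 6.42% and 9.07%, with intervals of 9.30 to 13.7 in WT TAC and 4.38 to 9.04 in CD3ϵ-/- TAC. With that denominator the interval of CD3ϵ-/- sham, 8.43 to 13.7, overlapped that of CD3ϵ-/- TAC. Without the limit on Cd3g, which removed cells in the groups with T cells only, the WT TAC share was 6.75% and the CD3ϵ-/- TAC share stayed at 3.26%.

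**Figure D2:**
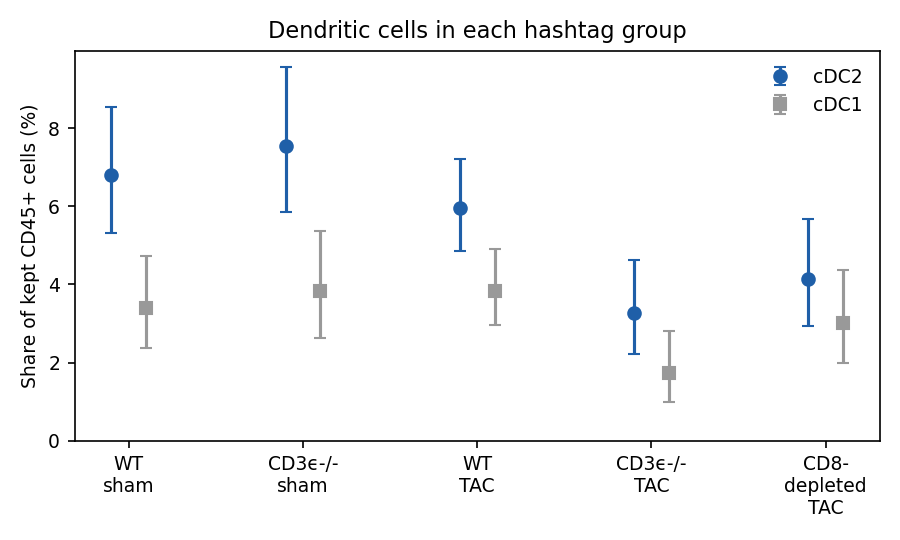
Share of kept CD45+ cells (%) that were cDC2 (circles) or cDC1 (squares) in each hashtag group, with exact 95% binomial intervals for counting error. CD3ϵ-/- TAC was lowest for both, with 3.26% cDC2 and 1.74% cDC1, against 5.94% and 3.84% in WT TAC.

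The ratio of the 2 dendritic cell subsets did not differ beyond counting error. There were 34, 32, 62, 16 and 27 cDC1 in the 5 groups, and 2, 1.97, 1.55, 1.88 and 1.37 cDC2 for each cDC1. cDC2 were 66.7% of both subsets in WT sham, 66.3% in CD3ϵ-/- sham, 60.8% in WT TAC, 57.8% in CD8-depleted TAC and 65.2% in CD3ϵ-/- TAC. All 5 intervals overlapped, the widest running from 49.8% to 78.6% in CD3ϵ-/- TAC. The Retnla-high cells that border the rule numbered 32, 35, 6, 3 and 0, so they were mostly cells of sham hearts.

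The 15 leading genes were ranked on cDC2 against cDC1, macrophages, monocytes and B cells together. The rule sorted these cells, so the genes are given as a description only. Clec10a, a galactose-binding lectin, had 324 CPM in cDC2 and 26.3 in cDC1. Klrd1, which encodes CD94, a partner chain of NK cell receptors, had 263 CPM against 61.6. Tnip3, a regulator of NF-κB signalling, had 186 CPM against 13. Tnfsf9, the ligand of the costimulatory receptor 4-1BB, had 86.1 CPM against 13.5, and Ddr1, a collagen receptor, 62.1 against 5.80. The list also held Cd200r1, the inhibitory receptor for CD200, Il1rl1, the IL-33 receptor ST2, Bhlhe40, a transcription factor, the metallothionein Mt2, and Upb1, L1cam, Gfra2, Ear2, Ctnnd2 and Skint3. Several of these were shared with the Retnla-high cells, which were left out of the ranking: Ear2 stood at 309 CPM in cDC2 and 1404 there, Upb1 at 65.5 and 156, and Il1rl1 at 149.7 and 166. Tnip3 (186 and 273 CPM), Mt2 (414 and 432), Gfra2 (56.4 and 138), Cd200r1 (124 and 224) and Skint3 (129 and 183) were also higher there. The rest of the 15 were lower there than in cDC2.

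Some receptors usually listed for NK cells were read widely in cDC2, and in part in cDC1 too. Klrd1 had 153, 133, 301, 347 and 427 CPM in the 5 groups. The 3 TAC groups were all above both sham groups. Klrb1b, an inhibitory NKR-P1 receptor, had 165, 254, 269, 352 and 387 CPM, lowest in WT sham. Over all groups Klrb1b had 274 CPM in cDC2 and 134 in cDC1, and Klrk1 had 91.9 and 123. Klri2 had 93.4, 98.7, 101, 74.2 and 56.4 CPM with no order by operation, and Klrk1, which encodes NKG2D, had 57.7, 75.7, 82.8, 195 and 95.2 CPM, highest in CD3ϵ-/- TAC, where 1 cell gave 24.0% of the reads. Klra17, a Ly49 family receptor, was at 12.5, 2.49, 9.31, 12.0 and 69.9 CPM, and 48.2% of its reads in CD8-depleted TAC came from 1 cell. Genes more restricted to NK cells were rare: Ncr1 was read in 2.11% and Klrb1c in 2.82% of thinned members, against 0.619% and 0.619% of thinned B cells. Klrd1 and Klrb1b did not mark the same members: Klrb1b was read in 67.9% of the 190 thinned members with Klrd1 and in 66.0% of the 94 without. The Ly49 and Klri genes have close relatives, and how shared reads were counted was not given in the sources used here.

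Among lectins, Mgl2, a second galactose-binding lectin, had 1499, 1459.7, 1211, 1054 and 1015 CPM. Clec10a had 354, 219.9, 334, 517 and 253 CPM, so the 2 neighbouring genes did not move together. Mgl2 was read in 73.0% of members with Clec10a and 75.3% of those without. Cd209d, a close relative of Cd209a, had 177, 184, 69.4, 8.84 and 93.8 CPM, but came from few cells, with 61.6% of the CD3ϵ-/- sham reads in 1 member. Clec4n, which encodes Dectin-2, had 11.0, 11.2, 39.9, 111 and 26.0 CPM and Clec4a3 147, 112, 207, 338 and 182 CPM, both highest in CD3ϵ-/- TAC. Ccl17 had 168, 125, 206, 120.4 and 108 CPM, and 1 cell gave 73.7%, 71.1% and 78.7% of the reads in WT sham, CD3ϵ-/- sham and CD3ϵ-/- TAC. Ccl17 was read in 30 thinned members, of which 60.0% had a read of Irf4 and 93.3% one of Mgl2, against 36.6% and 71.3% of the other 254.

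For TAC against sham, ratios of summed reads with 10 CPM added were taken for 4410 genes with at least 50 CPM in some group. In WT, 132 genes were at least 2-fold higher after TAC (2.99% of those tested) and 63 at least 2-fold lower (1.43%). In CD3ϵ-/- mice 233 were higher (5.28%) and 155 lower (3.51%). The CD3ϵ-/- TAC group had only 30 cells, and the part of its size in the larger counts was not tested. No count has a test, with 1 sample per group. The WT and CD3ϵ-/- comparisons share no cells. Both held 61 genes 2-fold higher, which were 46.2% of the WT list and 26.2% of the CD3ϵ-/- list, and 31 genes 2-fold lower, 49.2% and 20% of the lists.

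**Figure D3:**
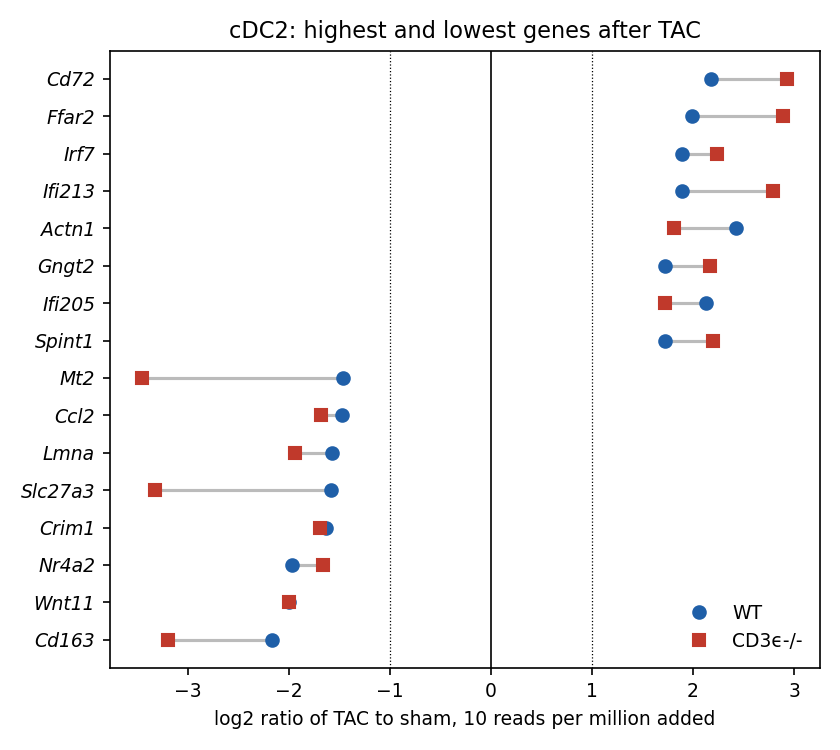
Log2 ratio of TAC to sham in cDC2 of WT (circles) and CD3ϵ-/- (squares) mice for the 8 highest and 8 lowest genes by the smaller of both ratios. Dotted lines mark 2-fold, solid line no difference, and each gene lay past 2-fold on the same side in both genotypes, since that is how it was ranked.

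The genes highest after TAC in both genotypes included Cd72, a lectin-like coreceptor, with 39.0, 38.3, 212, 359 and 184 CPM. Every TAC group was far above both sham groups. Ffar2, a receptor for short-chain fatty acids, had 2.26, 6.89, 38.7, 115 and 66.6 CPM, and Irf7, the transcription factor that amplifies type I interferon, had 11.4, 22.5, 69.3, 143 and 68.0 CPM. Gngt2, a G protein subunit, had 29.4, 19.0, 120.2, 120.1 and 120.3 CPM, so its TAC groups were level with each other. Actn1, an actin crosslinker, Spint1, a protease inhibitor, and the interferon-inducible Ifi205 and Ifi213 completed the list. Cd72 was also above sham in Ly6c2-high monocytes (0, 8.24, 151, 189.8 and 116 CPM) and macrophages (358, 450, 570, 646 and 566 CPM). It was not in every TAC group of B cells. Gngt2 was above sham in macrophages (79.0, 90.8, 174, 236 and 144 CPM), but not in every TAC group of monocytes or B cells. Ffar2 stayed at or under 8.28 CPM in cDC1, macrophages, monocytes and B cells of every group.

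Cd163, Mt2 and Ccl2 were among the genes lowest after TAC. Cd163, the scavenger receptor for haemoglobin, had 179, 122, 32, 4.34 and 12.8 CPM, and was also lower after TAC in macrophages (248, 159, 30.6, 26.3 and 70.5 CPM). Mt2, which binds zinc and other metals, had 722, 854, 256, 68.7 and 59.3 CPM, and in both sham groups no single cell gave over 10.2% of its reads. Both genes were lower in each TAC group than in either sham group. Nr4a2, a nuclear receptor induced by stimulation, had 148, 160.4, 30.1, 43.7 and 33.8 CPM, Lmna, which encodes lamins A and C, had 188, 334, 56.5, 79.7 and 107 CPM, and Wnt11, a secreted Wnt ligand, had 54.8, 76.7, 6.17, 11.7 and 15 CPM. Ccl2, the chemokine that recruits CCR2+ monocytes, had 445, 464, 154, 138 and 139.6 CPM. Slc27a3, a fatty acid transport protein family member, and Crim1 were the remaining 2. The Retnla-high cells of sham hearts also had Mt2 and Lmna (429 and 407 CPM in WT sham), and the part of cells near that border in these differences was not tested.

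Of 22 transcription factors tested, 1 was 2-fold higher and 1 lower after TAC in WT, and 2 were higher and 4 lower in CD3ϵ-/- mice. Over all genes these shares were 2.99% and 1.43% in WT and 5.28% and 3.51% in CD3ϵ-/- mice, so the WT counts were near the background. Klf2, a factor of quiescent cells, had 296, 310.0, 137, 106 and 129.8 CPM and was past 2-fold lower in both genotypes, as in macrophages (456, 579, 157, 159 and 145 CPM). Irf4 had 112, 96.3, 60.0, 29.4 and 46.6 CPM, past 2-fold in CD3ϵ-/- mice only (log2 ratio -1.43, against -0.80 in WT). Irf8, the factor of cDC1, had 10.2, 21.1, 91.0, 86.1 and 71.5 CPM, still far under the 2525 CPM of cDC1, and 1 cell gave 56.2% of its WT TAC reads. Flt3 had 121, 68.0, 138, 155 and 114 CPM, lowest in CD3ϵ-/- sham. Cd24a, a surface glycoprotein of dendritic cell precursors and cDC1, had 254, 335, 173, 64.9 and 142 CPM, lowest in CD3ϵ-/- TAC, while Dpp4, a peptidase of dendritic cells, had 106, 160.4, 224, 259 and 176 CPM, lowest in WT sham.

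Several genes shared with monocytes and macrophages were higher after TAC within cDC2. Cx3cr1, the fractalkine receptor, had 43.6, 38.1, 100, 109.7 and 113 CPM. Fcgr1, the high-affinity IgG receptor used to tell monocyte-derived cells from cDC2, had 19.0, 22.2, 70.3, 98.2 and 85.6 CPM, and C1qb, a complement subunit, had 6.98, 37.8, 90.0, 142 and 102 CPM. All 3 TAC groups were above both sham groups for each. Of 7 macrophage markers tested, 3 were 2-fold higher and 1 lower after TAC in WT, and 3 were higher and 2 lower in CD3ϵ-/- mice. Over all tested genes 2.99% were higher and 1.43% lower in WT, and 5.28% and 3.51% in CD3ϵ-/- mice. C1qa of the macrophage list was capped by the rule. The 8 monocyte markers summed to 304 and 557 CPM in sham and to 1028 to 1050 CPM in the TAC groups. The 11 macrophage markers summed to 529, 822, 644, 729 and 879 CPM. B cells, the background, had 525, 331, 493, 1760 and 452 CPM of the monocyte list. They had 585, 435, 995, 911 and 711 CPM of the macrophage list. Members were thus under B cells in WT sham and CD3ϵ-/- TAC for both lists, and in WT TAC for the macrophage list. Of 4 monocyte markers tested, 3 were 2-fold higher after TAC in WT, and 1 was higher and 1 lower in CD3ϵ-/- mice. The shares over all tested genes are those just given. The median B cell had 53.5, 41.5, 58.1, 58.2 and 37.4 CPM of the monocyte list. The median member had 31.0, 68.9, 59.2, 196 and 196 CPM of it, so the summed level rested in part on few cells. The part of such cells in the differences above was not tested. Ccr2, the receptor for CCL2, was level at 1477, 1462, 1667, 1499 and 1320.2 CPM, and Lyz2, the myeloid lysozyme, had 2086, 2455, 2569, 1505 and 1853 CPM, against 10424 in macrophages.

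The machinery of antigen presentation was nearly level between groups. Because the rule required H2-Ab1, cells low in class II were left out of every group, which in part fixed this. H2-Aa, the class II alpha chain, had 13910.0, 12329, 11349, 12901 and 10799.6 CPM, and Cd74, the invariant chain, had 33039, 30752, 27025, 27589 and 24082 CPM. H2-DMa and H2-DMb1, which load peptide onto class II, also stayed within 2-fold in all 5 comparisons between groups. Ciita, the transactivator of class II genes, was the exception of the 11 tested genes, with 207, 282, 465, 458 and 508 CPM, and was past 2-fold for WT TAC against WT sham (log2 ratio 1.13, against 0.68 in CD3ϵ-/- mice), while no class II gene itself was past 2-fold. Ctss, the protease cathepsin S, had 1202, 1538, 1840.1, 2943 and 2044 CPM, highest in CD3ϵ-/- TAC.

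Of 12 chemokines tested, 1 was 2-fold higher and 2 lower in WT after TAC, and 2 were higher and 5 lower in CD3ϵ-/- mice, beside 2.99%, 1.43%, 5.28% and 3.51% of all genes in the same order. Ccl4, a chemokine of activated myeloid cells, had 288, 417, 149.8, 112 and 92.0 CPM. Cxcl2, a neutrophil chemoattractant, had 148, 146, 394, 479 and 87.9 CPM, but 47.2% and 53.1% of the WT TAC and CD3ϵ-/- TAC reads came from 1 cell each. Cxcl16, the ligand of CXCR6, had 73.4, 98.1, 114, 271 and 186 CPM, highest in CD3ϵ-/- TAC. Il1b, the inflammasome cytokine, had 380.5, 473, 339.7, 1123 and 907 CPM, close together in WT sham and WT TAC and higher in CD3ϵ-/- TAC and CD8-depleted TAC. In monocytes Il1b showed another order (747, 1505, 1073, 840.1 and 663 CPM). Il6 had 63.7, 50.5, 6.79, 17.2 and 0 CPM, with 73.9% of the WT sham reads in 1 member.

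Cd83, Irf1 and Socs1 were lower after TAC in both genotypes. Cd83, a marker of activated dendritic cells, had 241, 291, 39.6, 101 and 38.6 CPM, highest in both sham groups and higher in CD3ϵ-/- TAC than in the other TAC groups. Irf1, a transcription factor induced by interferon-gamma, had 419.8, 545, 161, 165 and 114 CPM, and Socs1, a feedback inhibitor of cytokine signalling, had 52.7, 95.6, 12.8, 31.5 and 11.1 CPM. Of 9 interferon-gamma response genes tested, 3 were 2-fold higher (Gbp2, Gbp3 and Ciita) and 3 lower (Cxcl9, Socs1 and Irf1) after TAC in WT, and 2 were higher and the same 3 lower in CD3ϵ-/- mice. The shares over all tested genes were 2.99% higher and 1.43% lower in WT, and 5.28% and 3.51% in CD3ϵ-/- mice. Of 15 genes known to respond to tissue dissociation, none was higher and 4 were 2-fold lower after TAC in WT (median log2 ratio -0.63), and 1 was lower in CD3ϵ-/- mice (-0.29), against medians of 0.06 and 0.07 over all tested genes. Fosb had 895, 865, 378, 651 and 455 CPM and Atf3 1228, 1328, 545, 694 and 569 CPM. Summed over the 15 genes, every TAC group was also under both sham groups in cDC1, macrophages, monocytes and B cells. The levels were 14285, 13352, 10171, 8170 and 9990 CPM in cDC1. In B cells they were 12872, 12121, 8880, 10529 and 9737 CPM. Cd83 and Irf1 were likewise lower in each TAC group than in either sham group of these populations, and Socs1 was not. In cDC2 the early response genes were lower after TAC beside Cd83, Nr4a2 and Ccl2, and the part of tissue dissociation was not tested. Mature dendritic cell genes proper were rare: Ccr7, which guides migration to lymph nodes, was read in 1.41% of thinned members (B cells, which express it, 65.6%) and Fscn1 in 1.06%.

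Type I interferon response genes were higher after TAC, and more of them in CD3ϵ-/- mice. Of the 18 genes of the list, 14 reached the level tested. In WT 6 were 2-fold higher after TAC and none lower, with a median log2 ratio of 0.92. In CD3ϵ-/- mice 13 were higher and none lower, with a median of 2.16. Over all tested genes 2.99% were higher and 1.43% lower in WT, and 5.28% and 3.51% in CD3ϵ-/- mice, with medians of 0.06 and 0.07. Isg15, a ubiquitin-like modifier, had 30.2, 30.1, 82.2, 353 and 107 CPM. Its CD3ϵ-/- TAC level had an exact Poisson 95% interval of 338 to 368 CPM, for counting error only, and 1 cell gave 48.6% of the reads. Oasl2, a relative of the 2'-5' oligoadenylate synthetases, had 17.8, 23.2, 52.4, 130.4 and 58.9 CPM, and Ifi204, a DNA sensor of the p200 family, had 27.5, 46.8, 82.9, 286 and 131 CPM. Both were in the order sham, WT TAC, CD8-depleted TAC, CD3ϵ-/- TAC. Ifit3, a gene of antiviral RNA-binding proteins, had 37.1, 15.7, 32.2, 122 and 17.1 CPM, with 100% of the WT sham reads and 67.7% of the CD3ϵ-/- TAC reads in 1 member each. Related Ifi and Ifit genes lie in clusters of similar copies, so their separate values are uncertain.

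**Figure D4:**
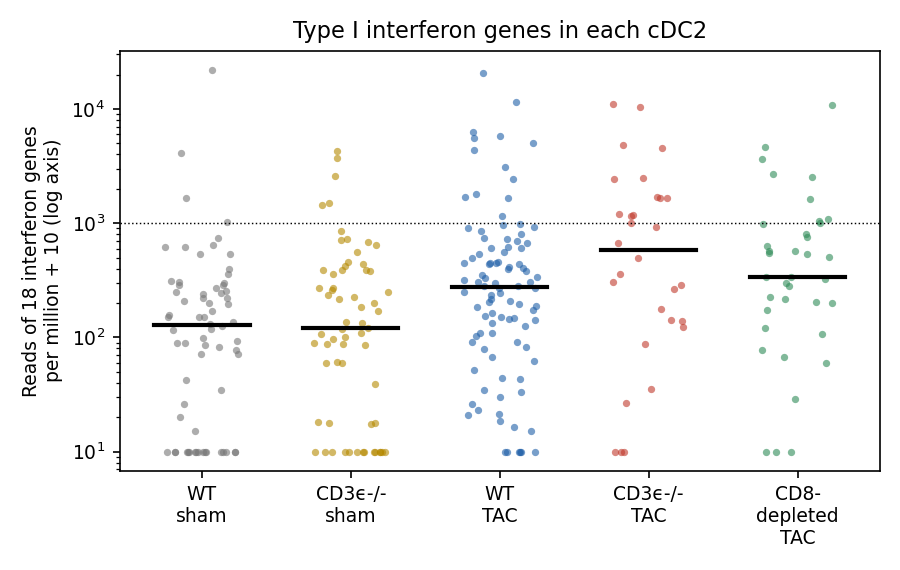
Summed reads of 18 type I interferon response genes in CPM, plus 10, on a log axis, for each of the 294 cDC2 by group, with group medians as bars and 1000 CPM as a dotted line. The median was 119 CPM in WT sham and 571 CPM in CD3ϵ-/- TAC, and cells above the line were found in every group.

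Summed over the list, the median member had 119, 111, 267, 571 and 326 CPM in the 5 groups. At least 1000 CPM was reached by 4 of 68, 5 of 63, 13 of 96, 13 of 30 and 8 of 37 members. This was 5.88%, 7.94%, 13.5%, 43.3% and 21.6%. The exact intervals, for counting error only, were 7.41 to 22.0 in WT TAC and 25.5 to 62.6 in CD3ϵ-/- TAC. The cells of a group came from the same sample, so these intervals do not test a difference between groups. The limit of 1000 CPM was set after the values were seen, and the CD3ϵ-/- TAC member nearest above it had 1001.78 CPM. How the shares change with another limit was not tested. CD3ϵ-/- TAC members were also the deepest, with a median of 193878 reads. The higher level was not particular to cDC2. In macrophages the median cell had 332, 306, 566, 1009 and 661 CPM and in monocytes 1125, 1379, 3005, 5306 and 5036 CPM, each highest in CD3ϵ-/- TAC. In cDC1, WT TAC and CD3ϵ-/- TAC lay close together at 1329 and 1365 CPM.

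Sequence upstream of these genes was searched for GAAANNGAAA, a core of the element bound by interferon-activated factors, on both strands and counting overlapping matches. Of the 18 genes 14 had a promoter in the RefSeq table (build GRCm38.p6), and 6 of these (42.9%) held the motif within 250 bases before the start, against 3.46% of 27025 genes with a promoter. The 6 were Ifit1, Ifit3, Isg15, Rsad2, Oas1a and Ifi205. A match is a description of these letters and not a bound site. The 150 bases before the start of 3 of them are printed to show how the matches lie, 5′ to 3′ on the strand of the gene with the motif in capitals, runs of capitals longer than 10 being overlapping matches. Isg15 lies on the minus strand at chr4:156200819-156200968, Ifit1 on the plus strand at chr19:34640739-34640888 and Oas1a on the minus strand at chr5:120907526-120907675.
Isg15: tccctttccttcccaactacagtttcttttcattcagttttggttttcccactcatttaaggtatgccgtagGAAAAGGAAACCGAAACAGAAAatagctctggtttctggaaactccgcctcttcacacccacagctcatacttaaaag
Ifit1: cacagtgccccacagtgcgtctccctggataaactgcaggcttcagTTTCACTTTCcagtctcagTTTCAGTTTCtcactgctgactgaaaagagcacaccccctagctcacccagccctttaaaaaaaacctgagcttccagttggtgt
Oas1a: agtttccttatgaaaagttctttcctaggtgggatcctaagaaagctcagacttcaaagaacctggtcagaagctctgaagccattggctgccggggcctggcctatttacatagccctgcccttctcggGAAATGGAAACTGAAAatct
In Isg15 the stretch held 3 overlapping matches, the nearest beginning 66 bases before the start. Ifit1 held 2 separate matches in the opposite orientation, and Oas1a 2 overlapping matches, the nearer beginning 14 bases before the start. Isg15 and Ifit1 were past 2-fold for CD3ϵ-/- TAC against WT TAC and Oas1a, at 29.3, 31.2, 71.4, 97.7 and 93.4 CPM, was not.

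For genotype in sham hearts, 41 of the 4410 genes were at least 2-fold higher in CD3ϵ-/- cDC2 (0.93%) and 49 lower (1.11%). In TAC hearts 80 were higher (1.81%) and 105 lower (2.38%). Both comparisons held 3 genes higher, 7.32% of the sham list and 3.75% of the TAC list, and 6 lower, 12.2% and 5.71% of the lists. Another 8 genes went past 2-fold in opposite directions. After TAC, 8 of the 14 interferon genes were higher in CD3ϵ-/- cDC2 and none lower (median log2 ratio 1.25), whereas in sham none was higher and 3 were lower. The count of 8 depended on few cells: it was 5 without the member with the most of these reads in each group, 5 with a mean over cells and 4 with thinned cells. The median log2 ratio was then 0.67, 0.51 and 0.59.

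The 8 genes ranked highest in CD3ϵ-/- cDC2 of both sham and TAC hearts, of which Mmp12, Ddx58 and Cd300lf were past 2-fold in both, began with Mmp12, macrophage elastase, with 21.8, 135, 106, 897 and 86.9 CPM, of which 1 cell gave 52.7% in CD3ϵ-/- TAC. Ddx58, the RNA sensor RIG-I, had 12.4, 36.3, 33.0, 92.6 and 45.8 CPM. Cd86, the ligand of CD28 on T cells, had 49.8, 106, 62.7, 125 and 112 CPM, and Plscr1, a phospholipid scramblase, had 38.1, 85.8, 91.7, 177 and 92.4 CPM. Cd300lf, an inhibitory lipid receptor, Cd69, an activation antigen, and Gbp2, an interferon-inducible GTPase, were also among them. In macrophages Cd86 was not higher in either CD3ϵ-/- group than in the matching WT group by 2-fold (274, 209, 141, 167 and 147 CPM).

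The 8 genes ranked lowest in both CD3ϵ-/- groups were in large part predicted genes. Gm42031, a long noncoding RNA on chromosome 8, had 813, 331, 934, 328 and 1349 CPM in cDC2 and was read in 98.9% of thinned members. All 3 groups of WT genotype were above both CD3ϵ-/- groups, with no overlap. Gm43305, on chromosome 14, had 904, 483, 1160.0, 489 and 1364 CPM, Gm4316, on chromosome 8, had 573, 289, 676, 299 and 868 CPM, and Gm46620 had 163, 47.5, 188, 24.5 and 287 CPM. None of these was particular to cDC2. In B cells Gm42031 had 1473, 761, 1598, 822 and 1922 CPM, and in macrophages 824, 439, 893, 442 and 1038 CPM. The rest of the list was Gm42428, Exosc1, Lpgat1 and Crim1, and Gm46620, Gm42031, Crim1 and Exosc1 were past 2-fold in both comparisons. Exosc1, an exosome subunit, had 50.1, 16.7, 25.5, 5.17 and 28.0 CPM in cDC2 but 15.7, 17.4, 14.0, 18.9 and 15.8 CPM in macrophages.

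**Figure D5:**
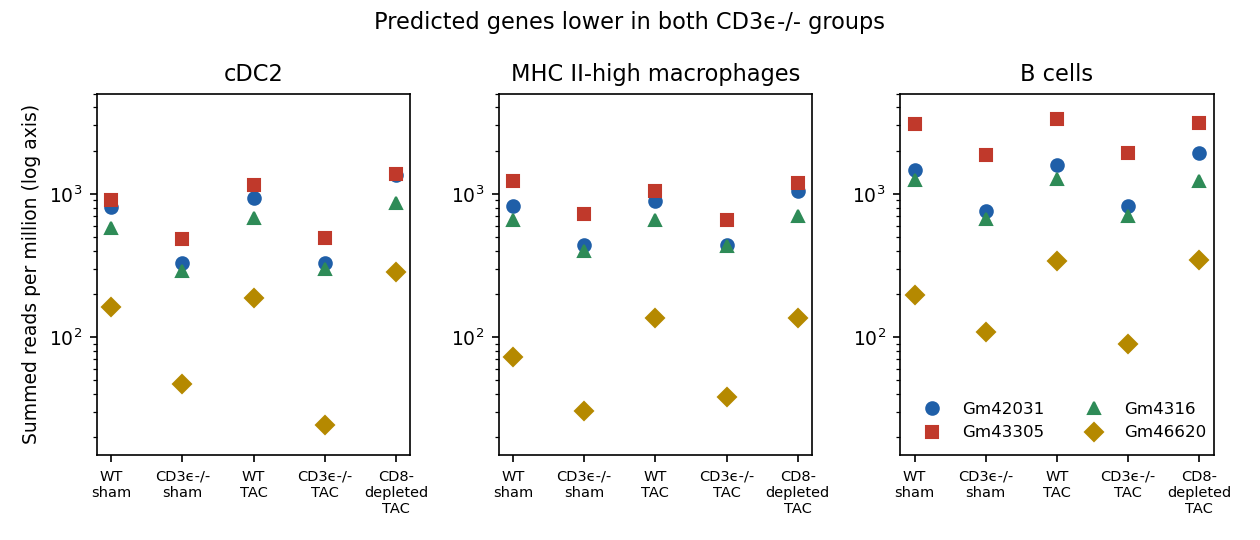
Summed level in CPM (log axis) of 4 predicted genes in cDC2, MHC class II-high macrophages and B cells by hashtag group. In all 3 populations both CD3ϵ-/- groups lay below the 3 groups of WT genotype, for Gm42031 in cDC2 at 331 and 328 CPM against 813 to 1349 CPM.

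In CD8-depleted TAC against WT TAC, the tested genes of the type I interferon, class II and lectin lists stayed within 2-fold, while Il1b was higher. Of the 4410 genes 44 were at least 2-fold higher (0.998%) and 59 lower (1.34%). This comparison uses the same WT TAC cells as the genotype comparison after TAC, so the 2 are not compared. None of the 14 interferon genes of the list was past 2-fold (median log2 ratio 0.05), nor any of 11 class II genes and 14 lectins. Of the last 2 lists, H2-Ab1 and Cd209a were in the rule, so their levels were in part fixed by it. Ifitm1, an interferon-induced gene outside the list that was singled out after its values were seen, had 61.1 CPM in WT TAC and 283 CPM in CD8-depleted TAC, with 65.5% of the latter from 1 cell. Il1b was higher (log2 ratio 1.39). Mt2, Skint3 and Cxcl2 were lower, at -1.94, -1.27 and -2.04.

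Genes of dividing cells were read in part of the members. At least 3 of 12 cell division genes were read in 60 of 284 thinned members (21.1%, interval 16.5 to 26.3), and 45 more lay 1 gene below. The share was 30.4% in cDC1, 25.4% in Retnla-high cells, 7.61% in macrophages, 1.87% in monocytes and 3.10% in B cells. By group it was 16.9%, 22.4%, 21.3%, 13.3% and 32.4%, and all 5 intervals overlapped. Top2a, which untangles replicated DNA, had 162, 125, 107, 95.2 and 291 CPM, and Mki67, the Ki-67 antigen, had 159, 168, 192, 119.9 and 393 CPM. In CD8-depleted TAC Top2a, Birc5 and Ube2c were 2-fold above WT TAC and Pcna, the replication clamp, 2-fold below, and 1 cell gave 33.0% of the Top2a reads there. In CD3ϵ-/- TAC 1 cell gave 89.0% of them.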

How the data were processed

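Single CD45+ cells of mouse hearts were captured and sequenced as 1 pooled TAS-Seq library, in which a hashtag read gave the group of each cell. The deposited matrix holds whole-number read counts per gene and cell, which the authors made from trimmed and mapped reads. Per the submitters' processing notes, cutadapt 2.10, Bowtie2 2.4.2 and the GRCm38 build were used, and their roles are not given in the sources used here. Columns named as doublets (40) or with no hashtag detected (8) were not used, so 48 of 5363 columns were left out, and no other doublet caller was run. No barcode carried 2 hashtags.

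Cells with at least 500 genes and at most 40% mitochondrial reads were kept (5263 of 5315). The library label gives no group, so cells were grouped by the hashtag number in the column names. The check of Cd3g bears on genotype only, and the match of hashtags to operation was not checked. cDC1 were cells with at least 50 CPM of Xcr1 or Clec9a, the same H2-Ab1 minimum, and the same limits on C1qa, Csf1r, Cd79a and Cd3g. Ratios are log2 of reads summed per group, per 1000000 reads of those cells (CPM), with 10 CPM added to both levels, for the 4410 genes with at least 50 CPM in a group. Called means at least 2-fold, with no test. Total reads of the kept cells were 641537015. Intervals are exact (Clopper-Pearson for shares, Poisson for reads) at 95%.

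Named genes were the genes of the lists given, the 15 leading genes of cDC2, and the 8 highest and 8 lowest genes by the smaller ratio of 2 comparisons, among those read in at least 20% of the thinned cells of the higher groups. The members and lists were chosen with earlier results of these data known. A few genes that met this rule are not reported here. Alternatives changed the limits of the rule, the cell filters, the scaling, the pseudocount, the gene filter, thinning and single members. Promoters came from RefSeq (GRCm38.p6). The ratio script was tested on simulated data. Python 3.11.15, numpy 2.4.6, pandas 2.3.3, scipy 1.17.1 and matplotlib 3.10.9 were used.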

Additional observations from a re-analysis of the deposited data

Results flagged for a closer look

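For CD3ϵ-/- against WT, 8 genes passed 2-fold in opposite directions in sham and in TAC, and these comparisons share no cells. With 1 sample per group the difference was not tested for any of them. Of these, 4 interferon-induced genes were lower in sham and higher in TAC. Ifit1 had log2 ratios of -1.28 and 1.34, Ifit2 of -1.12 and 2.16, Rsad2 of -1.75 and 1.34, and Ifitm1 of -1.19 and 1.42. In WT sham 1 cell gave 92.8% of the Ifit1 reads, 68.7% of the Ifit2 reads, 83.1% of the Rsad2 reads and 49.3% of the Ifitm1 reads.

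The other 4 were higher in sham and lower in TAC. Ccl7, a monocyte chemoattractant, had log2 ratios of 1.62 and -1.48 and no read in CD3ϵ-/- TAC. Fn1, fibronectin, had 1.25 and -1.32, with 66.9% of the CD3ϵ-/- TAC reads from 1 cell. Mrpl15, a mitochondrial ribosome protein, had 1.11 and -1.22, and Skint3 had 1.09 and -1.02. Both of these were spread over more cells, with at most 18.7% of the Mrpl15 reads and 28.2% of the Skint3 reads from 1 cell in the 4 groups compared.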

How the results depend on the processing

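The share of cDC2 stayed within 6.50% to 7.70% in WT sham, 7.19% to 8.45% in CD3ϵ-/- sham, 5.70% to 6.75% in WT TAC, 2.94% to 3.59% in CD3ϵ-/- TAC and 4.03% to 4.81% in CD8-depleted TAC over 10 other settings. All 50 share values and all 45 values of cDC2 per cDC1 stayed inside the counting interval of the main value. No Cd209a minimum among these settings could bring in cells without a read of it, and cells failing on Cd209a alone had a median of 0 CPM. Counts of genes past 2-fold were 195, 388, 90, 185 and 103 (WT TAC to sham, CD3ϵ-/- TAC to sham, CD3ϵ-/- to WT in sham, the same in TAC, CD8-depleted to WT TAC). They became 52, 121, 10, 48 and 36 with 50 CPM added and 44, 72, 7, 36 and 21 for genes of at least 200 CPM. For CD3ϵ-/- against WT in sham the count was 143 with a mean over cells and 152 with thinned cells. The other 28 of 40 alternative counts stayed within 1.5 times. Without the 5 members that stood apart, the count for CD8-depleted to WT TAC was 48 higher and 41 lower, against 44 and 59.

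After TAC, interferon genes higher in CD3ϵ-/- than in WT cDC2 numbered 5 without the top member of each group, 5 with a mean over cells and 4 with thinned cells, and in sham the count was 1 without the top members. Without the cell with the most reads of the gene, the log2 ratio of CD3ϵ-/- TAC to WT TAC was -0.10 for Mx2 and -0.10 for Vcan, which reversed both. Of 298 ratios past 2-fold among named genes, 168 fell below it with 50 CPM added and 85 without the top cell of each group. The interferon settings, the settings without a Cd3g or Clec9a limit, and those leaving out single members other than the top cell of a gene were chosen after seeing the data. No paired analysis was possible because each group was 1 sample. Depth and the 30 cells of CD3ϵ-/- TAC limit the precision there.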
